A study of Mus musculus with 8 samples.

Results

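This comparison set 1 array of mouse embryonic stem cells that had been given activin A against 1 array of a culture that had not, and it used 2 of the 8 arrays of the series. The first array held RAX-negative cells of the line K/l-EB5, which carries a green fluorescent reporter for the retinal and hypothalamic factor RAX. They were grown as aggregates in serum-free medium for 2 days, plated on poly-ornithine and laminin, given the tankyrase inhibitor IWR-1-endo (Wi) at 5 µM from day 3 and activin A at 10 ng/ml 12 h later, and sorted at 10 days in vitro for absence of the reporter. The second array, the Wi control, held E14Tg2a cells at 10 days in vitro with 5 µM IWR-1-endo and no activin, and no sort is given for it. Both lines are male and of 129/Ola background.

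Line, sort, factor and slide therefore differed together and cannot be told apart in any value that follows. Each array carried 50 ng of RNA pooled from 3 sets, so there is 1 measurement a side, no spread between cultures, and no test or p-value. The other 6 arrays are given beside the pair where they help to place a level: the RAX-positive cells of the same activin culture, RAX-negative and RAX-positive K/l-EB5 cells given the Smoothened agonist SAG at 100 nM in place of activin, and the cortex, diencephalon with hypothalamus, and eye of Sv129s6 embryos at embryonic day 12.5. In pooled RNA, fewer cells of a type and less of an RNA in each cell cannot be told apart.

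Activin and Nodal are ligands of the TGF-beta family that act through the same type I and type II activin receptors, phosphorylate SMAD2 and SMAD3 and, with SMAD4 and partners such as FOXH1, switch on target genes, among them the ligand Nodal itself and its secreted antagonists. In the mouse embryo this pathway maintains the epiblast, drives mesendoderm formation and restrains the turn of epiblast towards neural tissue. IWR-1-endo stabilises Axin and so lowers canonical Wnt signalling, and stem-cell aggregates in serum-free medium with a Wnt inhibitor tend to make forebrain.

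A level is the log2 of a probe's background-subtracted signal over the 75th percentile of its own array, so 0 lies at that percentile and 1 unit is a doubling. A gene is represented by its brightest probe, judged by the mean of all 8 arrays, and is set against itself across arrays, never against another gene. The ± after a difference is the error that the scanner software's error model gives for the pair of signals. It covers the measurement only and says nothing of how cultures vary. A gene was called higher or lower when the 2 arrays differed by at least 1 on the log2 scale, that is 2-fold, and the brighter array was well above background. Where the dimmer array was not, the fold is a lower limit. It was taken against the dimmer array's measured level or its floor, whichever was brighter. The floor of an array is its dimmest signal well above background. It lay at a level of -5.61 for the RAX-negative cells and -7.08 for the Wi control.

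Of 25464 genes detected on at least 1 of the pair, 4618 (18.1%) were higher in the activin RAX-negative cells, 5581 (21.9%) were lower and 15265 were not called, so 40.1% were called in either direction. The calls were nearly balanced, with 45.3% of them higher, and the median difference was 0.01. That balance moves with the scaling, since 55.7% of calls were higher after scaling to the array median (5985 higher, 4756 lower) and 33.8% were higher when the percentile was taken over probes well above background on all arrays (3425 higher, 6720 lower). Restricting the count to the 21995 genes that both arrays held well above background left 4017 higher (18.3%) and 3559 lower (16.2%). Many of the lower calls concern genes below detection in the RAX-negative cells: 2022 of the 5581 were not well above background there, against 601 of the 4618 on the other side. All 601 keep a lower limit of 2-fold or more. The floors fix that in advance, since -5.61 on the RAX-negative array lies well above -7.08 on the Wi control. On the lower side 888 of the 2022 keep such a limit, and for 1134 it was under 2-fold or none could be given. Without those 1134 the count of lower genes is 4447, below the 4618 higher. With such unequal floors that order is no result about the genes. The RAX-negative array had a smaller share of spots well above background, 59.5% against 67.5%, and a higher mean signal in its negative control spots, 26.5 against 17.3 in intensity units. Its part in the count of lower genes was not tested. The measurement error was small beside the call threshold, at a median of 0.20 where both arrays were well above background.

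**Figure D1:**
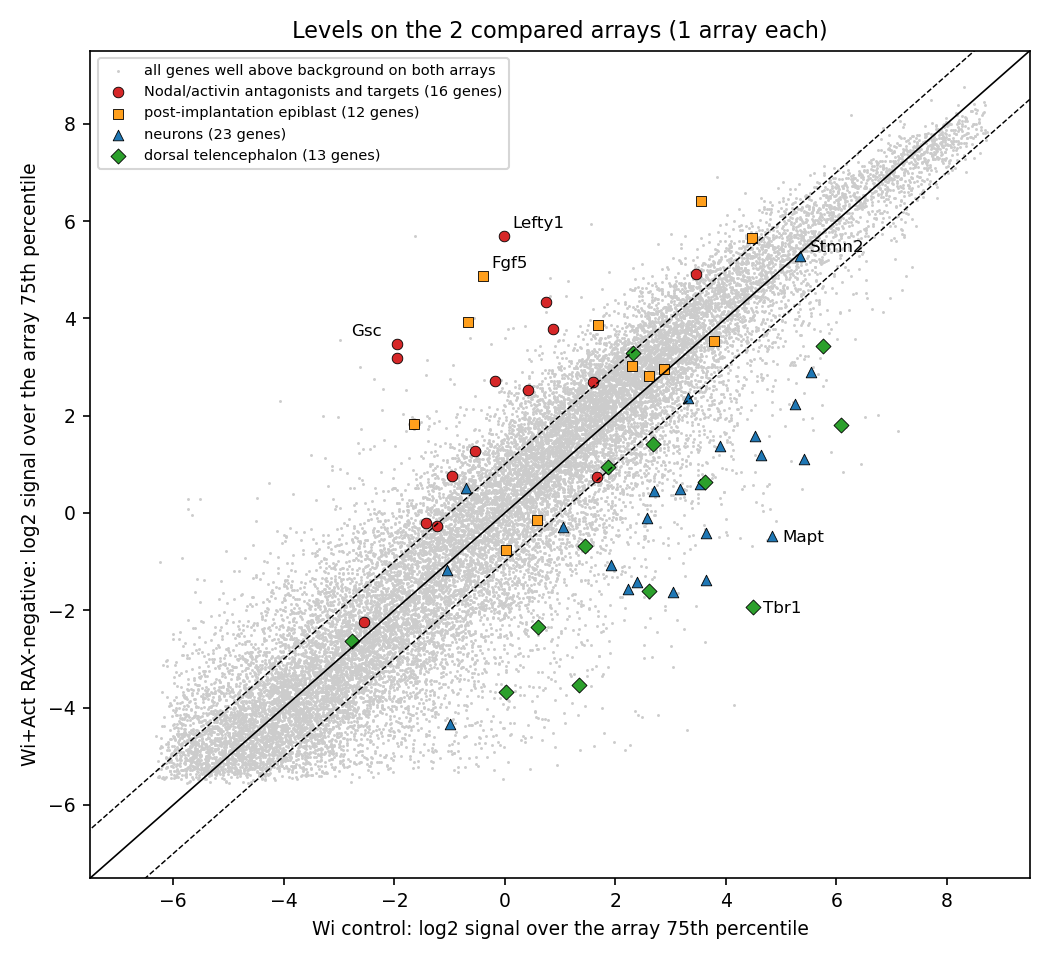
Levels of the 21995 genes that both arrays held well above background (grey), with the Wi control on the horizontal axis and the activin RAX-negative cells on the vertical axis, each as log2 of signal over the array's 75th percentile, equal levels on the solid line and 2-fold on the dashed lines. Nodal and activin antagonists and targets (red, with Cer1 drawn under its second list) and epiblast genes (orange) lie mostly on or above the line, and neuronal (blue) and dorsal telencephalic genes (green) mostly below it, with Stmn2 close to it.

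Lists whose medians stood furthest from that of all detected genes are given first. The shares over all detected genes were 18.1% higher and 21.9% lower, and counts near these shares are no result about a list's members. Lists and members were chosen with earlier results of these data known, so the medians are description only. Antagonists and targets of Nodal and activin had 13 of 16 detected members higher and none lower, with a median of 1.95. Neuronal genes had 20 of 24 lower and 1 higher, with a median of -2.97, and genes of the dorsal telencephalon had 13 of 16 lower and none higher, with a median of -3.34. Housekeeping genes, in contrast, had a median of 0.01 with 2 of 12 higher and none lower.

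**Figure D2:**
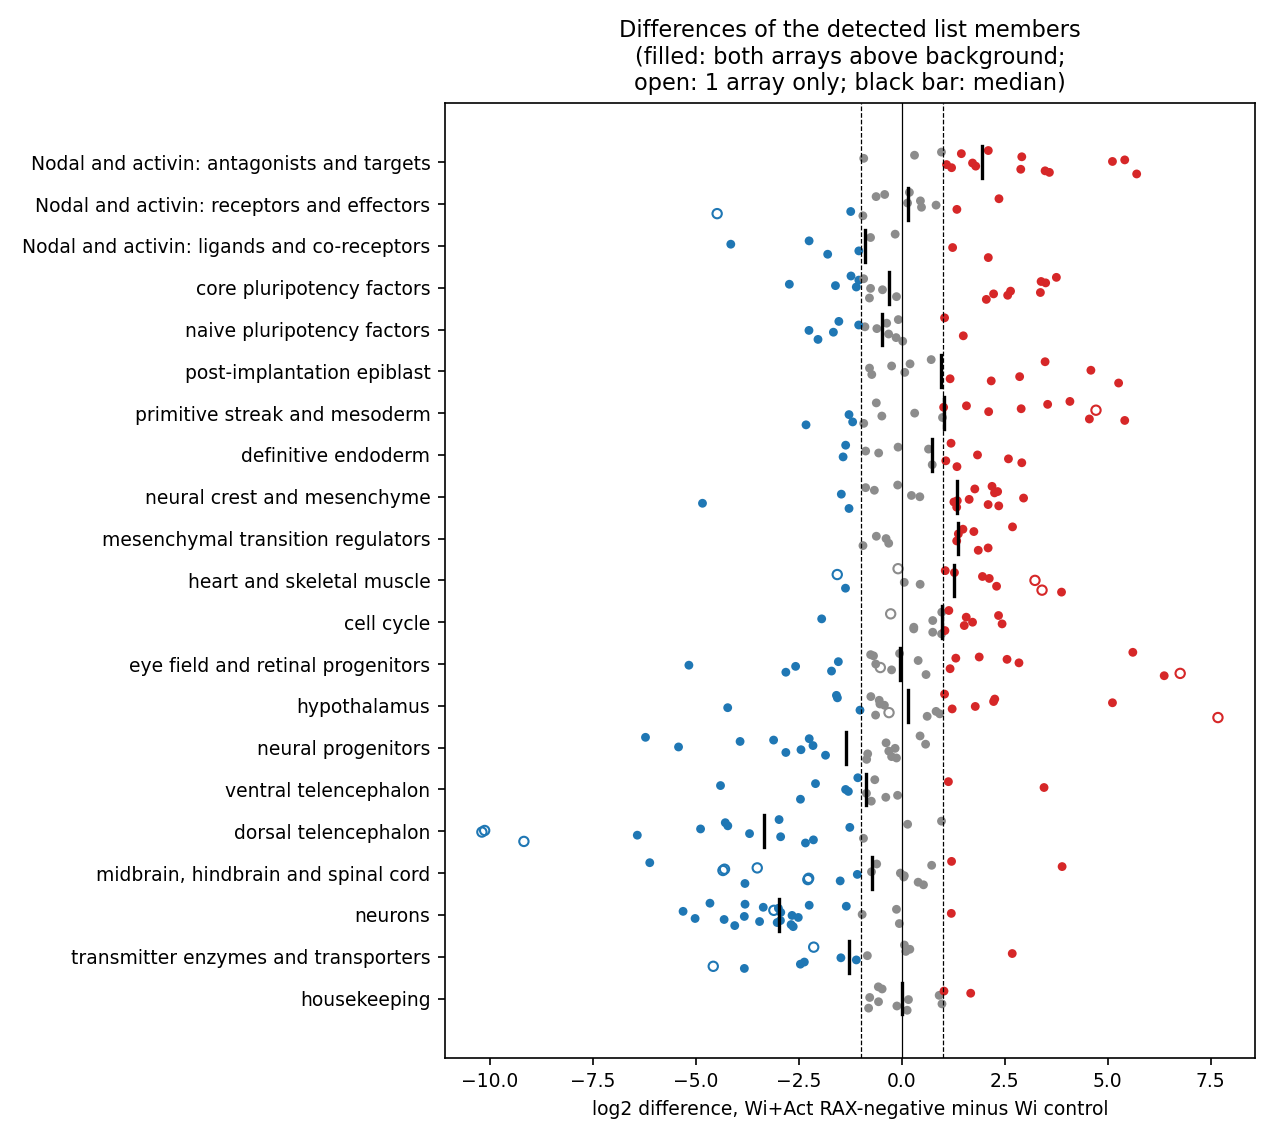
Difference between the activin RAX-negative cells and the Wi control (log2) for the detected members of 21 gene lists, 1 point a gene, red where called higher, blue where called lower and grey where not called, open where only 1 array was well above background, with a black bar at the list's median and dashed lines at 2-fold. The median of the antagonists and targets of Nodal and activin lies at 1.95, and those of the neuronal and dorsal telencephalic lists at -2.97 and -3.34.

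Most of the genes that activin and Nodal signalling is known to switch on were higher in the activin RAX-negative cells. Lefty1, a secreted Nodal antagonist that is itself a Nodal target, read 5.69 in these cells and -0.02 in the Wi control. It read 2.27 in the RAX-positive cells of the same culture, -4.03 in the SAG RAX-negative cells and -5.66, -5.13 and -4.52 in cortex, diencephalon and eye, and was not well above background in the SAG RAX-positive cells. The RAX-negative activin cells were thus the highest of the 8 arrays and the RAX-positive cells of the same culture the next, and the difference from the Wi control was 5.71 ± 0.20, or 52.2-fold. Its probe lies at chr1:182868137-182868196 on the build mm9. Lefty2, its neighbour and close relative, read 4.34 against 0.75, a 12.0-fold difference, and 0.45 in the RAX-positive activin cells.

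Cer1, which encodes the secreted antagonist Cerberus, read 1.83 in the activin RAX-negative cells, -1.65 in the Wi control and -2.60 in the RAX-positive activin cells, and was not well above background on the other 5 arrays. It was 11.2-fold higher than in the Wi control. Gsc, the homeobox gene of the organiser and anterior mesendoderm, read 3.47 in the activin RAX-negative cells, -1.95 in the Wi control, 0.43 in the RAX-positive activin cells, -3.40 and -4.01 in the SAG cells, and -5.96 in cortex and -2.75 in eye, with diencephalon between the Wi control and the eye. The highest array was again that of the RAX-negative activin cells, 42.7-fold above the Wi control.

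The promoters of Gsc and Cer1 are shown because both genes are known targets of this pathway in embryos and each has 1 start site in the RefSeq table used (build GRCm38.p6). The 250 bases before the start site were searched on both strands for a FOXH1 site, AATCCACA, the SMAD palindrome GTCTAGAC, the SMAD box CAGACA and the proneural E-box CAGATG, and matches stand in capitals. The Gsc window lies at chr12:104473237-104473486 on the minus strand and holds 1 E-box 210 bases before the start, and the Cer1 window lies at chr4:82885152-82885401 on the minus strand and holds 1 SMAD box 213 bases before it.
Gsc: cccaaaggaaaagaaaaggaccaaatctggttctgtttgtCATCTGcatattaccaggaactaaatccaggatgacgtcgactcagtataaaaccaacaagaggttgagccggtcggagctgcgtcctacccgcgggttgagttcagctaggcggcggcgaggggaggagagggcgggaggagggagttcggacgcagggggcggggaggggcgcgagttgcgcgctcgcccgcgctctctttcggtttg
Cer1: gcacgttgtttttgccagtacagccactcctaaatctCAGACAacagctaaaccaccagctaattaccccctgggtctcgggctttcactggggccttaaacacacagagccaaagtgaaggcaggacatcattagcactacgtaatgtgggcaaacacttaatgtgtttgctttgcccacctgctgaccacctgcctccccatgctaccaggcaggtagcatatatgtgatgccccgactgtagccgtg
Of the 17 antagonists and targets, 9 genes with 15 windows were in the table. No window held the FOXH1 site or the palindrome, which 0.718% and 0.167% of all 32851 windows held. The SMAD box was in 4 of the 15 (26.7%) against 17.1% of all windows. A match is a run of letters and not a bound site, and enhancers, through which this pathway acts on several of these genes, lie outside these windows.

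Intracellular brakes and other targets followed with smaller differences. Follistatin, encoded by Fst, binds activin outside the cell, and Fst was 7.42-fold higher (2.71 against -0.18), with a still higher level of 3.66 in the RAX-positive activin cells. Smad7, the inhibitory SMAD, was 3.48-fold higher, Pmepa1, which limits SMAD2 and SMAD3 activation, 3.30-fold, Tgif1, a SMAD corepressor, 2.73-fold and Skil, another corepressor, 2.13-fold. Both sorted fractions of the activin culture read nearly alike for Smad7, Pmepa1 and Skil, with Smad7 at 1.27 and 1.08 and Skil at 2.68 and 2.57 in RAX-negative and RAX-positive cells. Foxa2, a winged-helix factor of node, endoderm and floor plate, was 7.55-fold higher at 3.79 against 0.87, but the SAG RAX-negative cells, which had no activin, read 3.24. Of the members not called, Eomes, the T-box factor of streak and endoderm, differed by -0.92, and Mixl1 was not detected on either array.

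The ligands went both ways. Nodal was 4.30-fold higher, reading 2.53 in the activin RAX-negative cells, 0.42 in the Wi control, -0.49 in the RAX-positive activin cells and between -3.69 and -2.98 on the other 5 arrays. The 2 compared arrays were the 2 highest, with the activin RAX-negative cells first. The activin subunit gene Inhbb was 17.8-fold lower (-2.72 against 1.43, with 1.35 in cortex), Inha, the inhibin alpha subunit, was 4.75-fold lower and Gdf1 3.47-fold lower. Inhba, which encodes the subunit of activin A itself, was 2.36-fold higher at -1.48 against -2.71. Of 8 ligand and co-receptor genes detected, 2 were higher and 4 lower. The co-receptor genes Tdgf1 and Cfc1 were not called, at -0.76 ± 0.20 and -0.16 ± 0.20.

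Receptors and effectors were mostly not called, with 2 of 12 higher, 2 lower and a median of 0.17. Those shares, 16.7% each way, were near the 18.1% higher and 21.9% lower of all detected genes. Smad2, Smad3 and Smad4, the transducers, differed by 0.83, 0.14 and 0.45. Foxh1, the DNA-binding partner of the SMADs in the epiblast, was 5.14-fold higher at 1.00 against -1.36 and -2.66 or lower on the other 6 arrays. Acvr2b, a type II receptor gene, was 2.53-fold higher and its partner Acvr2a 2.36-fold lower. Acvr1c, which encodes the type I receptor ALK7, was at least 5.47-fold lower, since its probe was not well above background in the RAX-negative cells.

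Genes of the epiblast after implantation were also higher, 6 of 12 with none lower and a median of 0.95, and the list's summed signal was 234 times the array's 75th percentile against 73.5 in the Wi control. Fgf5, the standard marker of that stage, read 4.87 in the activin RAX-negative cells, -0.40 in the Wi control, -2.13 in the RAX-positive activin cells, and -6.15 in diencephalon and -5.99 in eye, and was not well above background on the other 3. The activin RAX-negative array stood apart from the other 7, with a difference of 5.27 ± 0.20 or 38.5-fold from the Wi control, at chr5:98705980-98706039 (mm9). Pim2, a kinase gene, was 24.2-fold higher, Dnmt3b, the de novo DNA methyltransferase of the epiblast, 7.28-fold, Pou3f1 4.51-fold and Otx2 2.26-fold. Cer1, given above, is the other higher member. Sox3, Sfrp2, Zic2, Zic5, Grhl2 and Lef1 were within 1 log2 unit.

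Core pluripotency factors did not move as a block. Of 18 detected, 8 were higher and 5 lower, and the summed signal was 179 against 177. That sum leans on the brightest members, and Dppa5a, the brightest in the Wi control, was among the lower genes. Pou5f1, which encodes OCT4, read 3.86 in the activin RAX-negative cells and 1.80 in the Wi control, was between -5.05 and -3.60 on the other 3 culture arrays, and was 4.16-fold higher in the pair. Its 2 high arrays are the 2 compared, so both cultures held OCT4 RNA at 10 days in vitro. Nanog differed by -0.78 ± 0.21 on the probe used and Sox2, shared by stem cells and neural progenitors, by -0.13, neither called. Another of the 3 probes of Nanog differed by 1.91. The Nanog probe used varied little, from -2.21 to -0.61 over the 8 arrays, tissues included. Foxd3 was 13.5-fold higher, Trim71 11.3-fold, Eras 10.4-fold, L1td1 6.25-fold and Sall4 5.95-fold, although the 3 probes of Sall4 ranged from -0.74 to 2.86. For Lin28b, 10.3-fold higher, and Trim71 the SAG arrays without activin were also high, with Lin28b at 4.17 and 4.72, against 4.47 here and 1.10 in the Wi control. On the lower side, Dppa5a was 6.62-fold lower at 4.12 against 6.85, and Fgf4, Gdf3, Dppa2 and Dppa4 were 2.06- to 3.05-fold lower.

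Naive pluripotency factors, which mark the stage before implantation, had 5 of 14 lower and 2 higher, with a median of -0.48. Nr0b1 was 4.76-fold lower, Esrrb 4.09-fold, Tfcp2l1 3.16-fold and Tdh 2.88-fold, and Zfp42, which encodes REX1, differed by 0.02. Klf4 was 2.82-fold higher. The naive list had a summed signal of 23.1 against 37.6, the opposite order to the epiblast list. Of the enzymes of DNA methylation, Dnmt3b, Uhrf1 (2.76-fold) and Dnmt1 (2.22-fold) were higher, 3 of 8, and Tet3 was 2.53-fold lower, with Dnmt3a just short of a lower call.

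**Figure D3:**
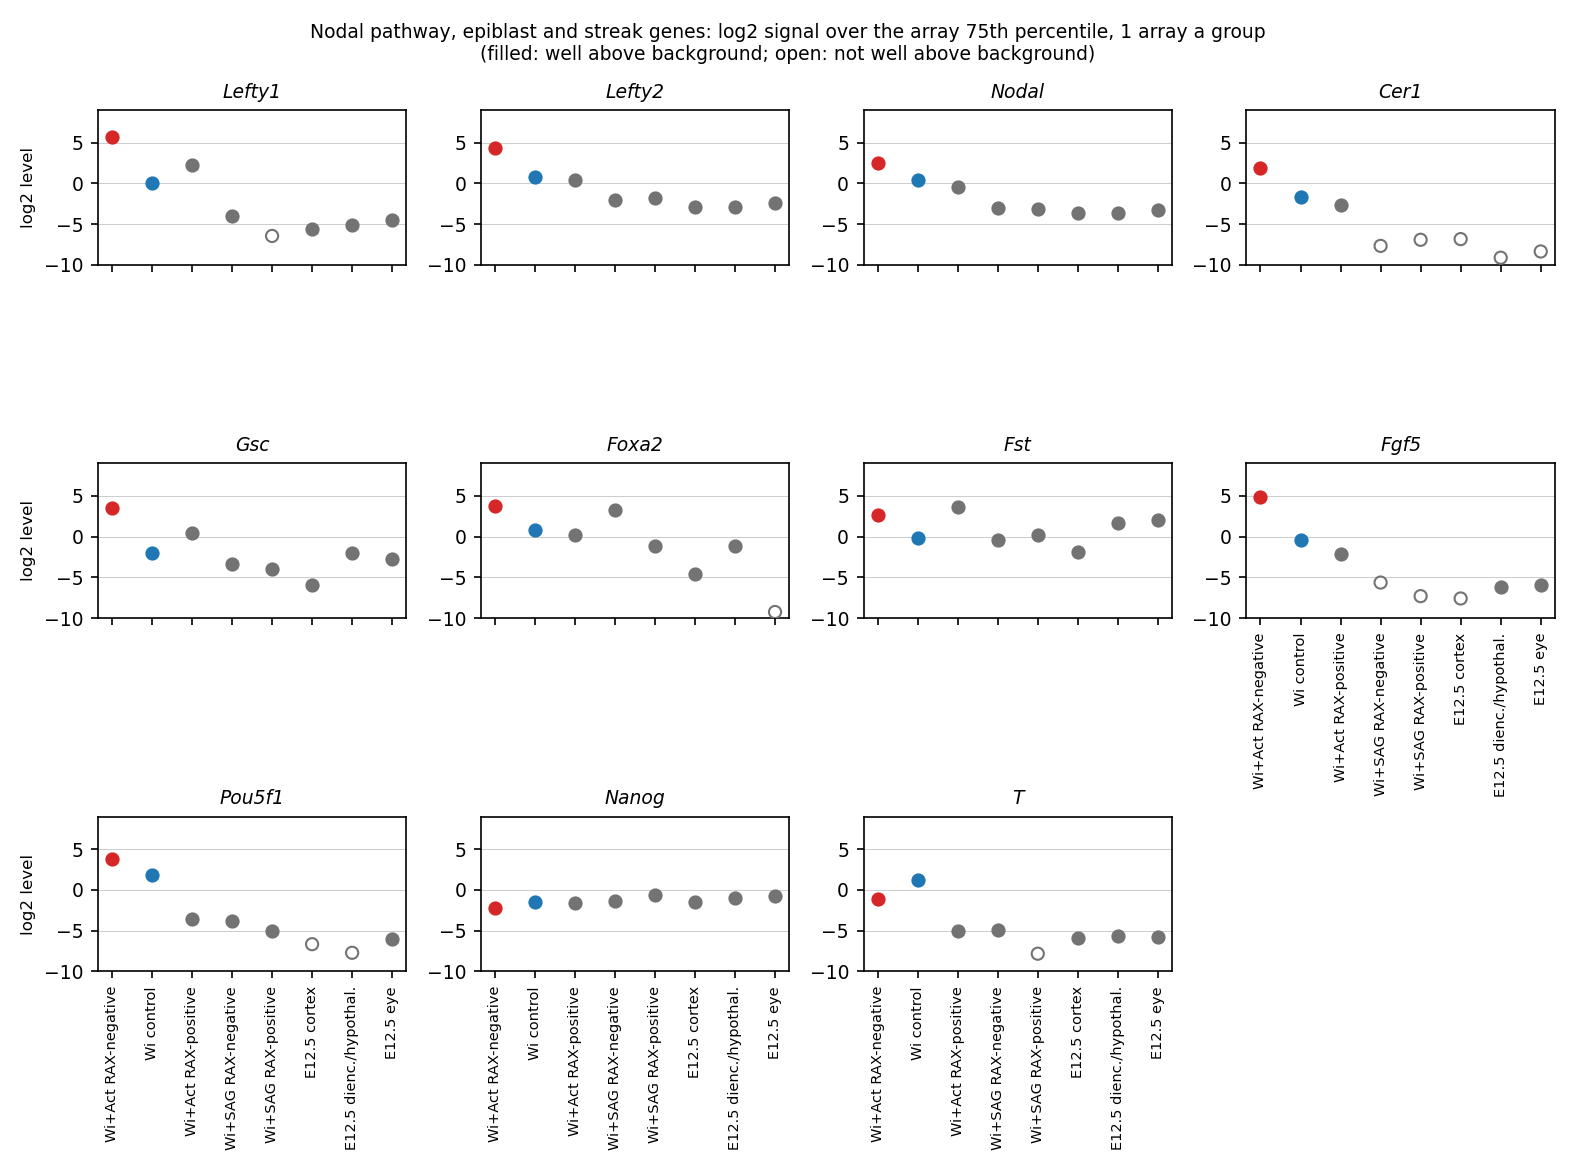
Levels of 11 Nodal pathway, epiblast, pluripotency and streak genes on each of the 8 arrays (log2 of signal over the array's 75th percentile, 1 point an array), with the activin RAX-negative cells in red, the Wi control in blue and the others in grey, open where the probe was not well above background. Lefty1, Gsc and Fgf5 are highest on the activin RAX-negative array, and T is highest on the Wi control array.

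Genes of the primitive streak and mesoderm had 9 of 17 detected members higher and 3 lower, with a median of 1.02. Over the alternative settings, the median taken against that of all detected genes ran from 0.47 to 1.19. The members did not follow 1 stage. T, which encodes Brachyury, the defining factor of the streak, was lower: it read -1.14 in the activin RAX-negative cells and 1.18 in the Wi control, between -5.86 and -4.85 on 5 others, and was not well above background in the SAG RAX-positive cells. The Wi control was the highest of the 8, 5.00-fold above the RAX-negative cells. Evx1 and Lhx1 were 2.28- and 2.43-fold lower, and Mesp1, Msgn1 and Meox1, which mark early and segmenting mesoderm, were not detected. Fgf8, an FGF of streak and anterior neural ridge, was 23.6-fold higher at 3.15 against -1.41, with 1.39 in the RAX-positive activin cells. Tbx1, a T-box gene of pharyngeal mesoderm, was 17.0-fold higher, Foxf2 11.7-fold and Foxc1 7.47-fold. Hand1 was at least 26.3-fold higher on the probe used, while its second probe differed by -0.23.

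Definitive endoderm genes had 6 of 13 higher, 2 lower and a median of 0.74. Sox17, the endoderm factor, was 2.54-fold higher, at -0.18 against -1.52, with -5.55 in the RAX-positive activin cells and no signal well above background on either SAG array. Gata6 was 6.03-fold higher, Hhex 3.58-fold and Krt19 2.30-fold, with Gata4 and Foxa2 also called higher. Cxcr4, a receptor often used to sort definitive endoderm, was 2.68-fold lower, Pdx1 was not detected, and Hnf4a differed by -0.87. The summed signal of the list was 25.9 against 9.17, and 27.1 in the SAG RAX-negative cells. Visceral and parietal endoderm genes had 3 of 15 higher and 6 lower, with Afp, Apoa4 and Apob not detected.

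Mesenchymal genes were higher as well, though their summed signal stayed below that of cortex and diencephalon. Of 19 genes of neural crest and mesenchyme, 11 were higher and 3 lower, with a median of 1.34 and a summed signal of 32.0 against 23.3, while cortex and diencephalon read 65.7 and 86.9. Postn, a matrix protein gene, was 7.78-fold higher, Lum 5.03-fold, Acta2, smooth muscle actin, 4.57-fold and Col3a1 3.11-fold (2.17 against 0.53, with 4.37 in cortex). The crest factors Tfap2b and Sox10 went the other way. Tfap2b read -3.73 against 1.10, 28.6-fold lower, and Sox10 was 2.43-fold lower. Among regulators of mesenchymal transition, 7 of 11 were higher and none lower, with Mmp2 6.46-fold, Snai2 4.28-fold, Snai1 3.63-fold and Fn1, fibronectin, 2.60-fold higher. The cadherins of that transition were not called, with Cdh1, E-cadherin, at 0.39 and Cdh2, N-cadherin, at -0.38. Epithelial genes were in part higher with them, 7 of 17 against 3 lower, including Epcam at 3.66-fold, Dsp at 2.74-fold and the keratin genes Krt8 and Krt18 at 2.69- and 2.53-fold. The other probe of Dsp differed by -0.85.

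Muscle genes had 8 of 13 higher and 2 lower at low levels. Actc1, cardiac actin, was 14.7-fold higher at 1.23 against -2.65, Myl4 4.94-fold, and Tnnt2, which is at least 10.6-fold higher, read -2.96. The summed signal was 4.35 against 0.846, with 46.0 in eye, which holds ocular muscle. Nkx2-5 and Myod1, factors of heart and skeletal muscle, differed by 0.45 and 0.06, at levels of -4.06 and -4.59. Myog, another factor of skeletal muscle, was at least 7.36-fold higher, at a level of -4.20. Blood and endothelial genes had 11 of 16 members well above background in the RAX-negative cells and 12 in the Wi control, mostly at low levels: Hba-x, Hbb-y, Emcn and Spi1 were not detected, and the summed signal was 3.70 in the RAX-negative cells, lower than in the Wi control, while the 3 tissues read 368 to 615. Among the 12 detected of that list, 4 were higher and 3 lower. Runx1 was 13.6-fold higher, the globin gene Hbb-bh1 4.52-fold (-2.98 against -5.16), Cdh5, VE-cadherin, 3.31-fold and Esam 2.90-fold. Tal1 was 20.5-fold lower and Kdr 4.56-fold lower.

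The dorsal telencephalon, the part of the forebrain that gives rise to cortex, had the lowest median of the gene lists. Tbr1, a T-box factor of early cortical neurons, read -1.93 in the activin RAX-negative cells and 4.49 in the Wi control. It read -1.84 in the RAX-positive activin cells, -1.82 and -2.24 in the SAG cells, 4.75 in cortex, -1.26 in diencephalon and -4.43 in eye. Cortex and the Wi control were thus the high arrays and the other 6 lay far below them, and the difference in the pair was -6.42 ± 0.21, or 85.6-fold, at chr2:61652093-61652152 (mm9). Neurod2 and Neurod6, neuronal differentiation factors of the cortical lineage, were not well above background in the activin RAX-negative cells and read 3.26 and 2.37 in the Wi control and 2.62 and 1.81 in cortex. They were at least 467-fold and at least 253-fold lower. Emx1, a homeobox gene of cortical progenitors, was at least 228-fold lower, with 2.22 in the Wi control, 2.75 in cortex and no other array above -4.39.

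The Neurod2 promoter is shown because that gene had the largest lower limit among genes called lower. Genes with RIKEN, predicted, LOC or accession names were left aside in that ranking. The window lies at chr11:98329646-98329895 on the minus strand (GRCm38.p6) and holds 1 proneural E-box, in capitals, 118 bases before the start.
Neurod2: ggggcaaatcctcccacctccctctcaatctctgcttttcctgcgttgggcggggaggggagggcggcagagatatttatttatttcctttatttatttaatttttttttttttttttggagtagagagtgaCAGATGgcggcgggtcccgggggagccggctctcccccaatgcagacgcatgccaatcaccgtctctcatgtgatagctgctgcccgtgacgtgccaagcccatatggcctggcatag
The E-box was in 2 of 13 windows of the dorsal telencephalic list (15.4%) and in 9 of 30 windows of the neuronal list (30.0%), against 14.4% of all windows. The FOXH1 site and the palindrome were in no window of either list, and the SMAD box was in none of the 13 and in 3 of the 30. Windows of start sites that lie close together overlap. The same E-box of Celf3, and the same E-box and SMAD box of Elavl4, are therefore each counted in several of the 30 windows. The shares of the neuronal list are thus not shares of separate sites.

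Other dorsal genes fell short of the Wi control by less. Wnt8b, a Wnt of the cortical hem, was 29.5-fold lower, Nr2f1, which encodes COUP-TFI, 19.5-fold, Bcl11b 18.7-fold and Neurod1 12.9-fold. Lhx5 and Dmrta2 were not called, at 0.97 and -0.93. The summed signal of the list was 31.8 against 205, with 227 in cortex. Ventral telencephalic genes had 6 of 13 lower and 2 higher, with Olig1 21.1-fold and Gsx2 5.49-fold lower, Dlx1 and Dlx2 not called, and Lhx8, a factor of cholinergic neurons, 11.0-fold higher.

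Neuronal genes were lower almost throughout. Mapt, which encodes tau, read -0.48 in the activin RAX-negative cells and 4.83 in the Wi control, -1.17 in the RAX-positive activin cells, 3.87 and 1.47 in the SAG cells, and 1.42, 4.68 and -0.45 in cortex, diencephalon and eye. Both activin arrays lay with the eye at the low end and the Wi control with diencephalon at the high end, and the pair differed 39.6-fold, at chr11:104189496-104189555 (mm9). Rbfox3, the nuclear marker NeuN, was 32.4-fold lower, Nrn1 25.2-fold, Gap43, a growth cone protein gene, 19.9-fold and Dcx, doublecortin, 16.6-fold. Tubb3, neuronal beta-tubulin, was 6.21-fold lower, from 5.54 to 2.90. The 3 not called were Nhlh1, Nefl and Stmn2, and Stmn2 read 5.28 and 5.34 in the pair. Nefm, the medium neurofilament, was 2.31-fold higher and was the 1 higher member. The summed signal was 77.5 against 353, and it was 41.3 in the RAX-positive activin cells and 295 in the SAG RAX-negative cells, so both activin arrays were low.

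Genes of transmitter synthesis and transport had 7 of 12 lower. Slc17a6, a vesicular glutamate transporter, was 14.1-fold lower, Slc17a7 at least 13.3-fold, and Gad1, which makes GABA, 5.15-fold. Ddc, aromatic amino acid decarboxylase, was the 1 higher member at 6.43-fold.

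Neural progenitor genes had 9 of 18 lower and none higher, with a median of -1.35. Neurog2, the proneural factor of the dorsal forebrain, was 74.6-fold lower (-3.17 against 3.05), and Fabp7, a radial glial marker, 42.8-fold lower (1.69 against 7.11). Pou3f2 and Pou3f3 were 15.2- and 8.63-fold lower, Pax6 7.03-fold and Hes5, a Notch target, 5.45-fold. The members not called included Sox1, Sox2, Sox3, Nes and Msi1, with differences from -0.85 for Sox1 to -0.13 for Sox2. Sox1, the earliest neural plate marker, still read 1.70 in the activin RAX-negative cells against 2.55.

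**Figure D4:**
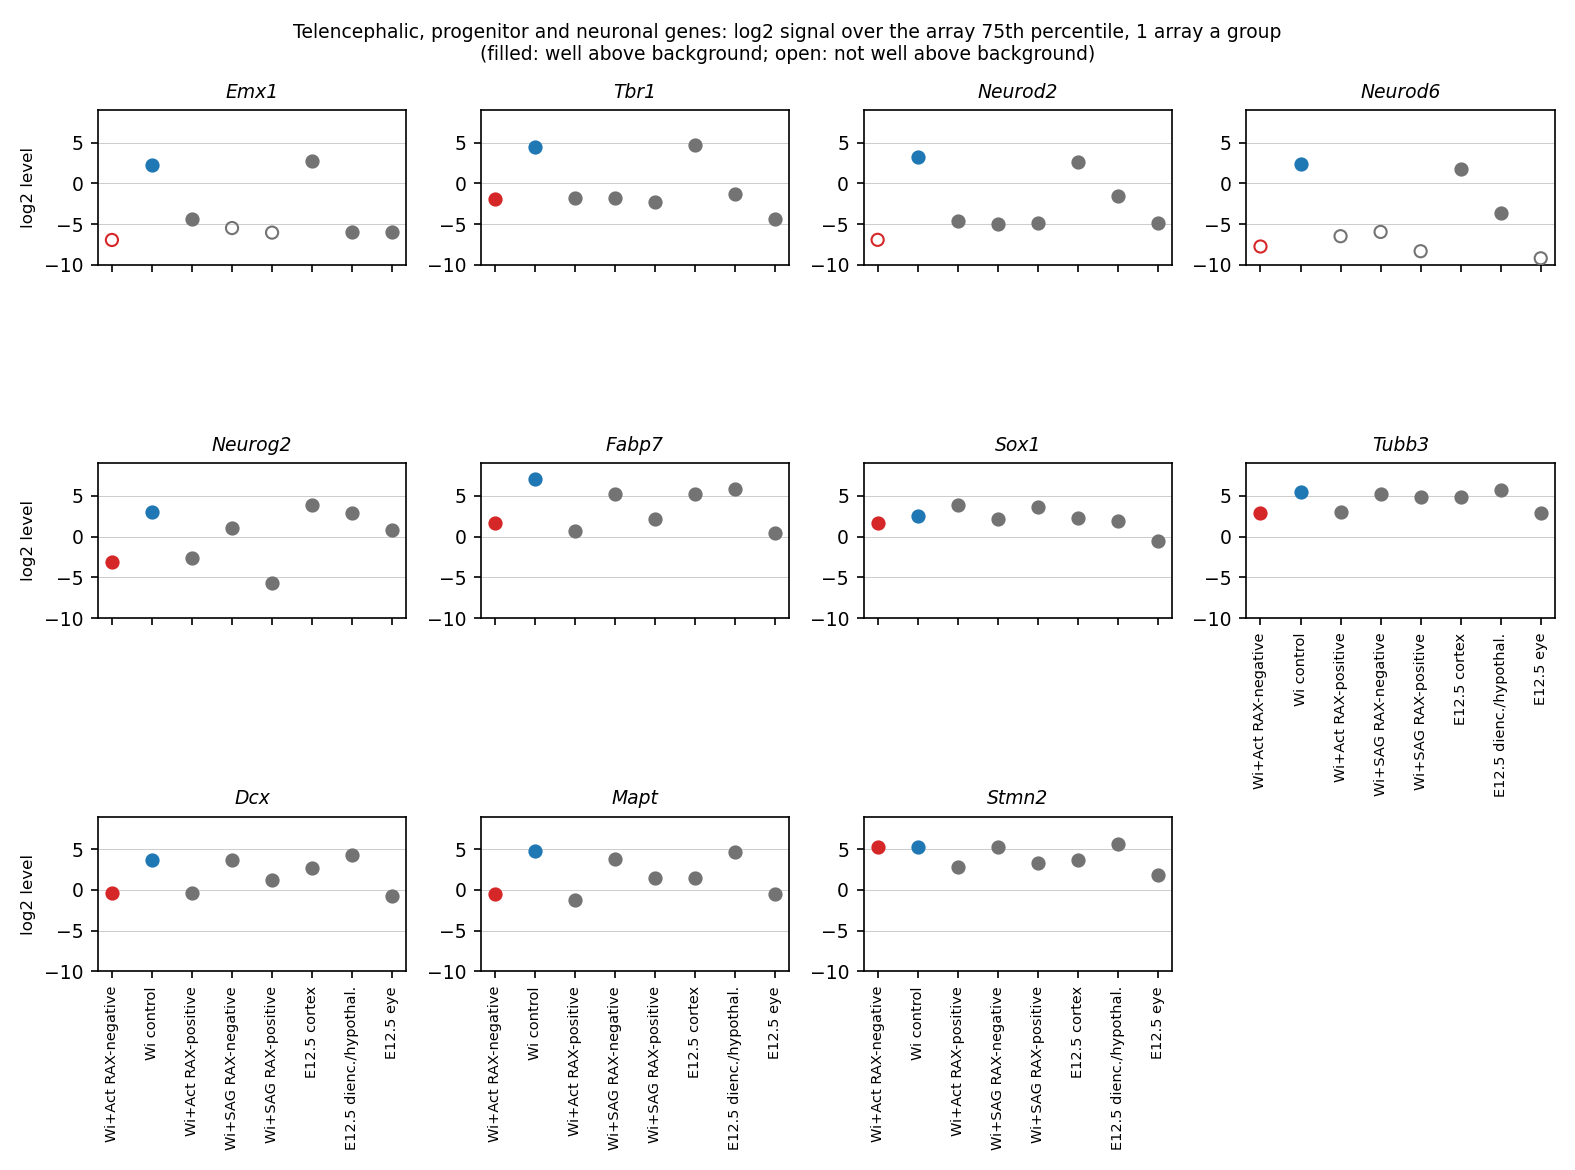
Levels of 11 telencephalic, progenitor and neuronal genes on each of the 8 arrays (log2 of signal over the array's 75th percentile, 1 point an array), with the activin RAX-negative cells in red, the Wi control in blue and the others in grey, open where the probe was not well above background. Tbr1, Neurod2, Neurod6 and Emx1 are high on the Wi control and cortex arrays, and Stmn2 is nearly level in the pair.

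Posterior neural genes were lower too, with 9 of 19 lower and 2 higher from midbrain to spinal cord. En2 read -2.48 against 1.33. Hoxa2, Hoxb2 and Hoxb4 were at least 4.48-, 4.78- and 3.16-fold lower and low in the Wi control as well, at -3.44, -3.35 and -3.95. Egr2, a hindbrain and immediate early gene, was 14.9-fold higher.

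The gene that defined the sort did not read as absent. Rax read 2.30 in the activin RAX-negative cells, -4.07 in the Wi control, 5.45 in the RAX-positive activin cells, 3.08 and 5.49 in the SAG RAX-negative and RAX-positive cells, -3.32 in cortex, 3.14 in diencephalon and 4.53 in eye. Cortex and the Wi control were the low arrays. The RAX-negative cells lay below the RAX-positive cells of their own culture, and yet 83.0-fold above the Wi control. Six6, a partner of Rax in the eye field, was at least 46.1-fold higher (-1.55, with 2.15 in RAX-positive activin cells), and Hesx1, a homeobox gene of the anterior forebrain and pituitary, 48.9-fold higher (3.00 against -2.61, 2.57 in the RAX-positive activin cells). Vax1 was 7.20-fold higher and Fzd5 5.89-fold. Mab21l1 was 35.9-fold lower, Nr2e1 5.96-fold and Lhx2 3.26-fold, and Six3 and Atoh7 were not called. The eye field list therefore had 8 of 21 higher and 5 lower, with a median of -0.05.

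Hypothalamic genes had 7 of 20 higher and 4 lower. Nkx2-1, the ventral hypothalamic and basal forebrain factor, read -0.65 in the activin RAX-negative cells and was not well above background in the Wi control, at least 86.3-fold lower there. The RAX-positive activin cells at 1.34, both SAG arrays at 4.30 and 4.82 and diencephalon at 3.09 were higher still. Trh, thyrotropin-releasing hormone, was 4.70-fold higher, at 6.58 against 4.35, and read 0.41 in the RAX-positive activin cells and 1.42 in diencephalon, so both compared cultures exceeded the tissue. Gal, galanin, was 4.79-fold higher, Hmx3 3.45-fold higher and Lhx9 18.7-fold lower. Lens genes had 5 of 14 higher and 1 lower at low levels, with a summed signal of 3.15 against 3.63. Pigment cell genes had 2 of 9 higher and 3 lower, with Dct at least 7.77-fold higher and Rlbp1 11.3-fold lower.

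Other signalling pathways were mixed. For BMP signalling, Grem1, a secreted BMP antagonist, was 56.1-fold higher: it read 0.28 in the activin RAX-negative cells, -5.52 in the Wi control and 3.03 in the RAX-positive activin cells, the highest of the 8. Id3, a BMP target, was 6.30-fold higher and Id4 6.49-fold lower, and of 13 antagonists and targets 4 were higher and 2 lower. Gdf6 was at least 16.2-fold higher among the ligands and receptors, of which 3 of 11 were higher and none lower.

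Among Wnt ligands and receptors 7 of 23 were higher and 6 lower. Wnt8b, Wnt7a (25.1-fold) and Wnt7b (-3.94 against -0.03), which are made in the forebrain, were lower with Wnt5a (4.05-fold), and Wnt5b and Wnt8a were 3.80- and 3.48-fold higher. Of the receptor genes, Fzd2, Fzd4, Fzd5, Fzd6 and Fzd7 were 2.49- to 5.89-fold higher and Fzd1 and Fzd9 2.41- and 5.33-fold lower, and the other probe of Fzd7 differed by -0.17. Secreted antagonists went both ways, with Frzb 19.9-fold, Dkk2 7.59-fold and Dkk1 5.80-fold higher and Wif1 7.30-fold lower. Targets of canonical Wnt signalling, which IWR-1-endo limits in both cultures, included Axin2 at 2.05-fold lower, Notum at 3.78-fold lower and Sp5 and Lef1 not called.

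FGF genes had 4 of 18 higher and 7 lower, with Fgfr3, a receptor of neural progenitors, 13.3-fold lower on the probe used while another of its 3 probes differed by 0.43, and with the feedback genes Dusp6, Spry1 and Etv5 not called. Hedgehog genes had none of 12 higher and 4 lower, with Boc 16.6-fold and Hhip, a target, 3.92-fold lower and the target Gli1 at 0.30. Notch genes had 2 of 15 higher (13.3%) and 3 lower (20%), near the 18.1% and 21.9% of all detected genes. Notch3 was 3.19-fold higher and Dll4 at least 3.86-fold lower. In retinoic acid metabolism 6 of 13 were higher and 2 lower, and the 2 breakdown enzymes detected differed in direction, with Cyp26b1 34.5-fold lower and Cyp26a1 2.91-fold higher.

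Cell cycle genes had 7 of 15 higher and 1 lower, with a median of 0.97. The replication genes Mcm5, Ccne1, Mcm6 and Mcm2 were 5.42-, 5.10-, 3.30- and 2.87-fold higher, and Mki67 and Pcna, at 0.97 and 0.75, were not called. The regulators of G1 leaned the other way, 6 of 12 lower and 2 higher, with the inhibitor genes Cdkn2c, Cdkn1b and Cdkn1c 8.86-, 3.50- and 3.31-fold lower and Myc 3.24-fold higher. For the cell cycle list the Wi control, at a summed signal of 221, lay near diencephalon at 205, and the activin RAX-negative cells, at 501, lay near the RAX-positive cells at 477 and cortex at 471.

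Immediate early genes were higher on every sorted array than in the Wi control or the tissues in the case of Fos, Fosb and Egr1. Fosb read 2.75 in the activin RAX-negative cells, -2.37 in the Wi control, 2.68 in the RAX-positive activin cells and -0.14 and 1.28 in the SAG cells, and -4.71 to -4.29 in the tissues. The 4 sorted arrays were thus the 4 highest, and the pair differed 34.8-fold. Egr1 was 8.34-fold and Fos 7.44-fold higher, and 5 of 14 of the list were higher and 1 lower. Ddit3, a stress gene, was 4.73-fold lower. The part of the sort was not tested. Hypoxia and glycolysis genes had none of 15 higher and 2 lower, Vegfa 4.73-fold and Pdk1 2.26-fold. Cholesterol genes had 2 of 12 higher (16.7%, near the 18.1% of all detected genes), with Idi1 at 2.47-fold.

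Imprinted genes had 6 of 17 higher and 4 lower, and the gene furthest higher where both arrays were well above background was among them. H19, a maternally expressed non-coding RNA, read 5.70 in the activin RAX-negative cells and -1.62 in the Wi control, and from 0.48 to 7.07 on the other 6 arrays. The Wi control was the lowest array, and the SAG RAX-positive cells came next at 0.48. On the probe used the Wi control lay 159.6-fold below the RAX-negative cells, and the 7 probes of H19 differed by 0.24 to 7.52. Nnat, Plagl1 and Mest were 20.9-, 18.7- and 8.41-fold higher, and for these the other 3 K/l-EB5 arrays also lay above the Wi control, with Nnat at 6.76, 6.93 and 6.45 against 1.56. The 4 probes of Plagl1 ranged from -0.87 to 4.37. Dnah10, an axonemal dynein gene named by the size of its 64.4-fold difference, read 0.28, 0.27, 0.18 and 0.66 on the 4 K/l-EB5 arrays, -5.73 in the Wi control and -5.77 to -4.88 in the tissues. Another of its 3 probes differed by 0.07. For genes of this kind the line and the sort separate the arrays as they do the pair, and their part was not tested.

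**Figure D5:**
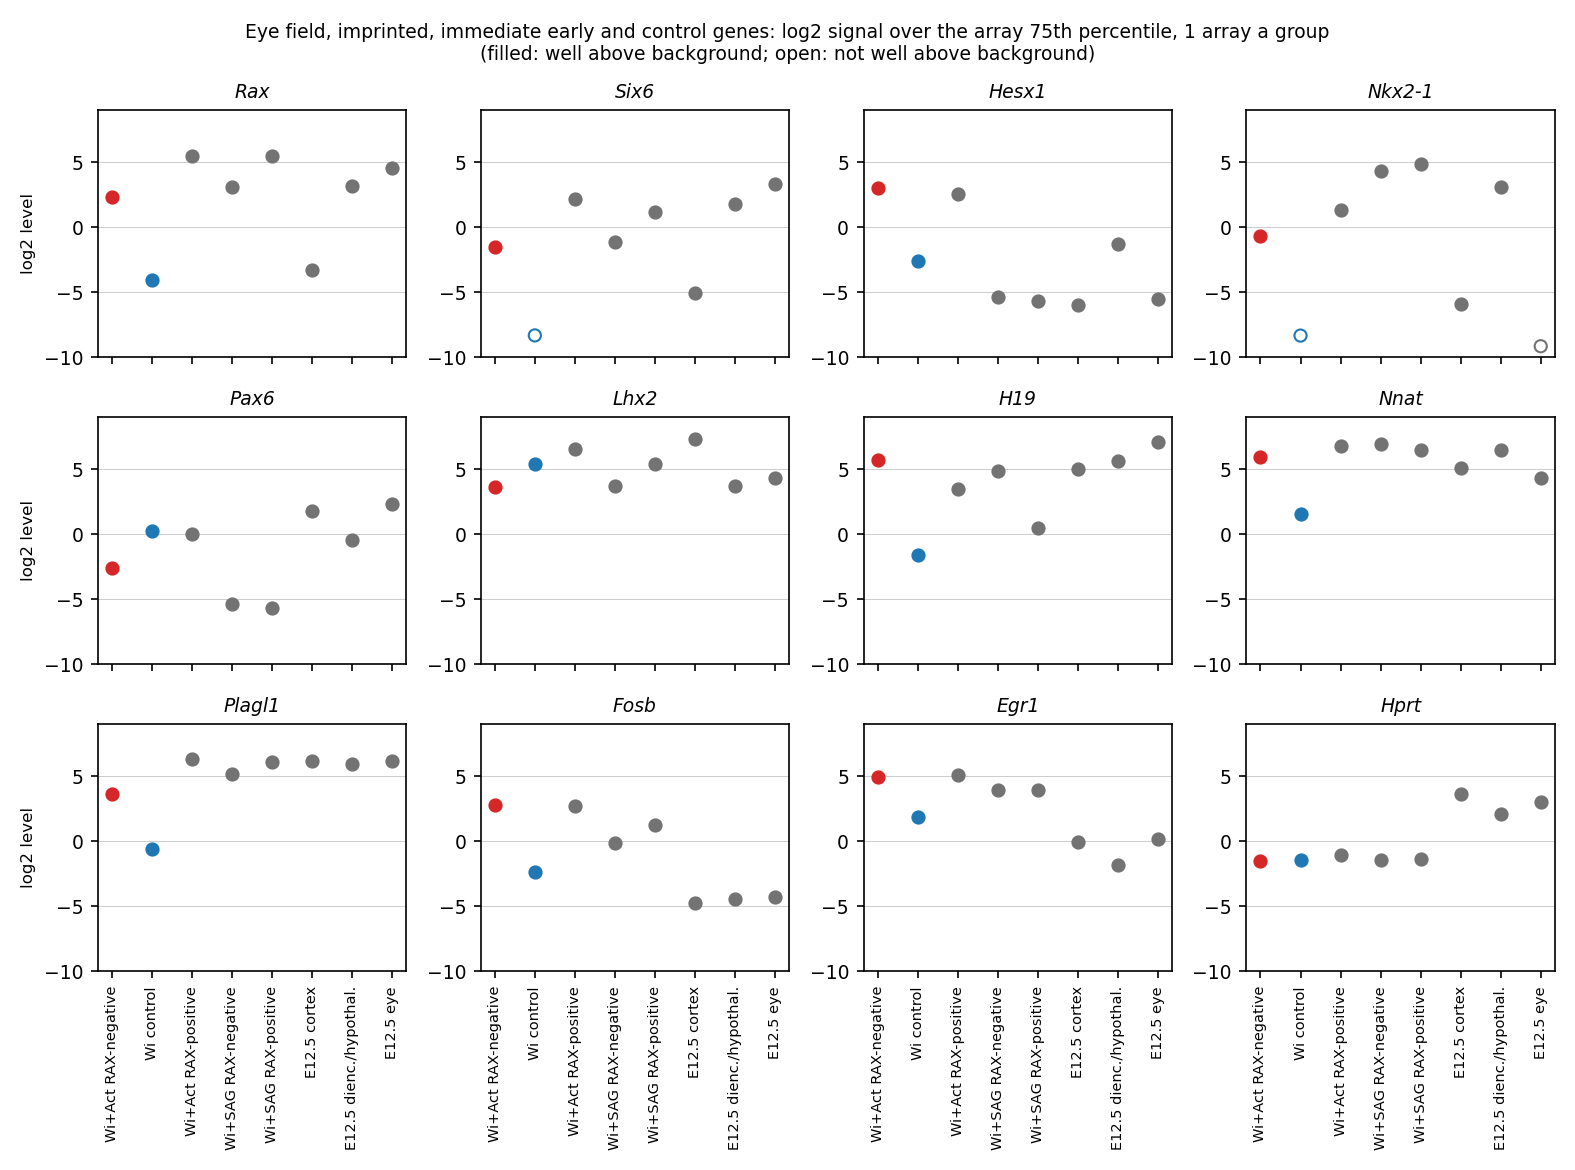
Levels of 12 genes, from the eye field, hypothalamic, imprinted and immediate early groups and with Hprt, on each of the 8 arrays (log2 of signal over the array's 75th percentile, 1 point an array), with the activin RAX-negative cells in red, the Wi control in blue and the others in grey, open where the probe was not well above background. Hprt is deficient in the line E14Tg2a and is no control here. Rax is low on the Wi control and cortex arrays, Fosb is high on the 4 sorted arrays, and H19 is lowest on the Wi control array.

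The genes with the largest differences span these groups. Where both arrays were well above background, the 15 genes furthest higher reached 159.6-fold for H19. They included Rax, Lefty1, Hesx1, Gsc, Fgf5, Fosb and Grem1, described above, and Calcr, the calcitonin receptor, at 92.3-fold (3.54 against -2.98). For Calcr the activin RAX-negative array stood alone among the cultures, and only diencephalon, at 1.26, came nearer to it. Unc45b, a muscle myosin chaperone, was 49.7-fold higher, Slc5a7, the choline transporter, 37.8-fold, Crispld1 56.6-fold and Vrtn, a somite and vertebral gene, 38.9-fold. The 15 furthest lower reached 276-fold for Slc14a2, a urea transporter (-3.96 against 4.15). For Slc14a2 the Wi control stood alone, with cortex next at 0.41 and the other 6 at -3.14 or lower. Mlc1, an astroglial membrane protein gene, was 215-fold lower, Syn2, synapsin 2, 132-fold, Mmd2 102-fold, Nell2 79.4-fold, Chl1, a neural adhesion molecule, 78.1-fold, Caly 53.7-fold, Zfpm2 52.9-fold and Gkn1 84.7-fold. The nuclear factor I genes Nfix and Nfib, late progenitor and glial factors, were 86.4- and 56.3-fold lower.

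Among genes below background on 1 side, the largest lower limits of a higher call after Nkx2-1 were 79.9-fold for Sfta3-ps, 69.6-fold for Fli1, an endothelial and blood ETS factor, 64.9-fold for Tnfsf11, the ligand RANKL, 33.1-fold for Ptger4, 31.0-fold for Olfr64, 25.8-fold for Kis2 and 25.6-fold for Pgr, the progesterone receptor. The fold of Pgr rests on the probe used, and another of its 3 probes differed by 0.64. After Neurod2, the lower calls led with Tnfsf10, which encodes the death ligand TRAIL, at least 303-fold lower (2.64 in the Wi control), Neurod6 and Emx1, and then Hs3st4, Pcdh9, Dgkb, Elmod1, Ppargc1a and Scrg1 at least 50.2- to 76.9-fold lower.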

How the data were processed

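Spot intensity on 1-colour Agilent mouse arrays was deposited as scanner output, background-subtracted per the file headers, and an additional table of the authors' log2 values was deposited with scale and centring unstated. Per the submitters' processing notes, Agilent Feature Extraction 9.1 and limma were used. The file headers name another version of that software and place probes on mm9. The authors' table followed the scanner log2 values (Pearson correlation 0.991 for the activin RAX-negative array and 0.984 for the Wi control, over 55419 probes) and has column medians of 6.36 and 6.37.

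Control spots and outlier spots were left out (210 and 296 outlier spots), spots of a probe averaged, the signal divided by the array's 75th percentile (intensity 1013 and 754 on the 2 arrays) and the log2 taken. No spot was saturated. Of 55681 probes, 28026 were named by accession from RefSeq and 27655 by the file's own name, giving 34652 gene names, 11153 with several probes. Among called genes, 3705 have several probes, and for 1252 of these the probes differ in sign. The Wi control lay alone on its slide and the other 7 arrays shared another. The number of arrays, 1 a side, limits the precision. Named genes were the 15 furthest in each direction among genes well above background on both arrays, the 10 with the largest lower limits in each direction, and members of gene lists beside the counts of their list, of which some are not reported here. The members and lists were chosen with earlier results of these data known. Of the list genes, 3 were not matched on the array. The calling script was tested on simulated data. Promoter windows are RefSeq's. Alternatives were 3 other scalings, normexp background correction with an offset of 50, the authors' table, 2 detection rules, the median over a gene's probes and 2 stricter thresholds. Tools were R 4.3.3, limma 3.58.1, Python 3.11.15, numpy 2.4.6, pandas 2.3.3 and matplotlib 3.10.9.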

Additional observations from a re-analysis of the deposited data

How the results depend on the processing

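No paired analysis was possible because each group is 1 array of pooled RNA, which also leaves no replicate to leave out. The counts of higher and lower genes moved by over 1.5 times with normexp background correction (3072 and 3198), with a threshold of 2 on the log2 scale (1167 and 2268) and with a difference beyond 1 by more than 2 errors (2334 and 2703), and the lower count also when both arrays had to be well above background (3559). The other settings kept the counts between 3425 and 5985 higher and between 3991 and 6720 lower. Taken against the median over the detected genes, the median of the Nodal antagonists and targets ran from 1.58 to 1.96 over the 8 alternatives and the main setting, that of the dorsal telencephalon from -3.56 to -2.80 and that of the neurons from -3.19 to -2.64. The muscle list ran from 0.58 to 1.76, the streak and mesoderm list from 0.47 to 1.19 and the midbrain to spinal cord list from -0.83 to -0.12. Medians near 0 changed sign under some setting, among them those of the BMP, Notch, hypothalamic, epithelial, germ cell, lens and pigment lists. Of 217 called genes named, 204 to 211 stayed at 1 or more in the same direction under each alternative counted. Those were the 3 other scalings, normexp, the authors' table and the median over a gene's probes. The detection rules and stricter thresholds were not counted so. Sall4 reversed with the median over its 3 probes (-0.74). Of 1650 gene values rerun, 615 moved by their error or more. For 19 of the 217 genes a further probe fell short of the call, among them Acvr2a, Acvr2b, Axin2, Dppa4, Esrrb, Fzd2, Fzd5, Otx2 and Tet3. Dim genes carried an error of 0.71 at the median, against 0.20 where both arrays were well above background.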

Other observations

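Some germ cell and placental genes of the X chromosome were among the higher genes, though the Rhox cluster as a whole had 6 of 19 detected members higher and 2 lower, with a median of 0.15, and Esx1, an X-linked placental gene, was not called at 0.23. Rhox6, a homeobox gene of placenta and germ cells, was 32.1-fold higher (1.97 against -3.03), Rhox9 19.4-fold, Rhox5 5.53-fold and Plac1, a placental gene, 27.7-fold. The SAG RAX-negative cells, which had no activin, read 1.39 for Rhox6, 2.42 for Rhox9 and 0.18 for Plac1, and both RAX-positive arrays read -2.27 or lower for these 3, so the 2 RAX-negative arrays were the high ones. The germ cell list as a whole had 4 of 16 higher and 6 lower, with Mael 5.44-fold and Tfap2c 5.25-fold lower and Ddx4 at least 4.92-fold lower, and the trophoblast list 4 of 13 higher and 2 lower. Matrix and basement membrane genes had 7 of 15 higher and 1 lower, with Col5a2 8.24-fold and Lama5 5.08-fold higher and Vtn 11.2-fold lower.

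Gene families taken by symbol after the values were seen gave the following counts, beside 18.1% higher and 21.9% lower of all detected genes. Protocadherins, neural adhesion molecules, had 34 of 44 lower and 2 higher with a median of -2.20, GABA and glycine receptors 17 of 22 lower and none higher, voltage-gated potassium channels 18 of 29 lower and 2 higher, and glutamate receptors 15 of 27 lower and 2 higher. Hox genes had 23 of 28 lower and 1 higher, but for 9 of the 23 the lower limit was under 2-fold or none could be given, as it was for 4 of the 18 potassium channel and 3 of the 17 GABA and glycine receptor genes. Of the 4 nuclear factor I genes, Nfia, Nfib and Nfix were lower, Nfia at least 43.6-fold, and Nfic differed by -0.88. On the higher side, 8 of 9 MCM helicase genes were higher, 21 of 39 proteasome subunit genes with a median of 1.02, and 16 of 35 collagen genes, 6 of which were lower. Of 81 ribosomal protein genes 2 were higher and 1 lower, with a median of -0.19. Odorant and vomeronasal receptor genes had 46 of 245 detected members higher and 81 lower.

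Medians of the difference per chromosome, where both arrays were well above background, ran from 0.04 on chromosome 1 to 0.26 on chromosome 19. Xist was not detected on either array, and of the Y-linked genes Ddx3y and Eif2s3y were not called and Uty was 2.12-fold lower on the probe used, while its other probe differed by 0.13. Hprt, which is deficient in the line E14Tg2a, read -1.54 and -1.42 in the pair, -1.42 to -1.07 on the other 3 culture arrays and 2.12 to 3.62 in the tissues.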
